A study of Quercus ilex with 12 samples.

Results

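The 100 contigs described here were those whose transcript level in the leaves of *Quercus ilex* (Holm oak) separated every droughted library from every watered one, at both samplings. A contig is an assembled transcript sequence, and its level is given in TPM, a unit that is scaled for contig length and sums to the same total in each library. The contigs were chosen by their values: a mean of at least 2 TPM over the 12 libraries, and a lowest value in the 6 drought libraries above the highest value in the 6 controls. They were ranked by the ratio of these 2 values, with 0.1 TPM added to each, and the first 100 were kept. Of 47,568 contigs listed, 23,684 reached the mean of 2 TPM and 379 of these (1.6%) met the rule. The 100 members were therefore 26.4% of the contigs that met it. The mirrored rule, for contigs lowered in every drought library, was met by 266 contigs (1.12%).

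The leaves came from seedlings 6 months old that were either kept well watered (control) or left without irrigation (drought). Leaves were taken on 2 occasions (S1 and S2), and each occasion had a control and a drought group, which made 4 groups of 3 biological replicates. The sample labels place S1 and S2 at 20 and 25 days, while the description of the series gives 17 and 24 days of drought. All groups shared age, species and tissue, and each sampling had its own controls. The labels do not say whether a replicate was 1 seedling or a pool, nor which mother trees gave the acorns.

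In leaves, water shortage is sensed through loss of turgor and through abscisic acid, a hormone that closes the stomata and starts a broad change of transcription. Transcripts that rise in droughted plants are known to include those for dehydrins and other late embryogenesis abundant proteins, for the synthesis of compatible solutes, and for enzymes that remove reactive oxygen species. Holm oak is an evergreen tree of dry Mediterranean woodland and is known for its tolerance of summer drought. The deposited tables list contigs by identifier and do not pair them with gene names. No member could therefore be placed in these classes, and members are called by their rank, with the identifier for the first 2. The leaf identity of the samples could not be checked against marker genes for the same reason.

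The libraries held 11,239,487 to 33,384,307 estimated counts. Libraries of 1 group were not all alike. Pearson correlations of log2(TPM + 1) across the 23,684 contigs, which are not independent replicates, placed 3 libraries away from their own group. Their mean correlation with the other libraries of their group was 0.787 (S1 control replicate 2), 0.803 (S2 control replicate 2) and 0.789 (S2 drought replicate 3), against 0.829 to 0.890 for the other 9 libraries. The S2 drought library replicate 3 correlated at 0.77 and 0.81 with the other S2 drought libraries. It correlated at 0.89 with the S1 control replicate 1 and at 0.88 with the S1 control replicate 3. These controls correlated at 0.87 with each other. The S1 control replicate 2 and the S2 control replicate 2 correlated at 0.89 with each other, and at 0.83 or less with the other controls of their own sampling. The cause was not tested, and results that rest on these 3 libraries are given with and without them.

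The gap between the treatments was narrow for most members. The ratio that ranked them fell from 2.30 at rank 1 to 1.21 at rank 100, with a median of 1.29. It exceeded 2 in 5 members and 1.5 in 20, and 51 members had a ratio under 1.3. At the lower edge, the contig ranked 100 had a lowest drought value of 269.9 TPM and a highest control value of 223.8 TPM. The next contig in rank, just outside, had 8.08 and 6.69 TPM. The ratios ran on without a step at this edge. At the edge of the mean level, the members ranked 80, 40 and 3 averaged 2.21, 2.37 and 2.43 TPM over the 12 libraries. Among separated contigs whose ratio reached that of rank 100, those just under the minimum averaged 1.92, 1.92 and 1.91 TPM. A contig with a smaller ratio, 1.02, averaged 1.945 TPM.

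**Figure D1:**
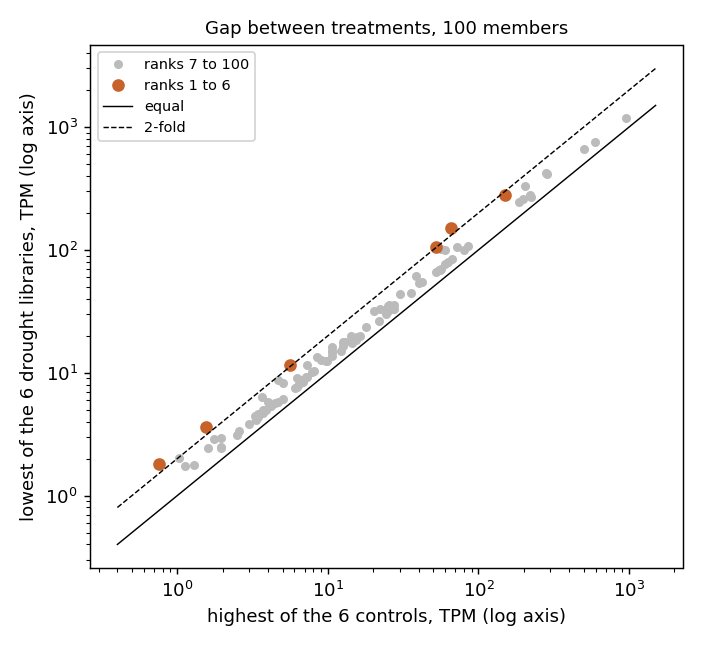
The lowest TPM in the 6 drought libraries (vertical log axis) is plotted against the highest TPM in the 6 controls (horizontal log axis) for each of the 100 members. Points lie above the solid line of equality by the rule that chose them, and 5 members have a ratio over 2, near or above the dashed line.

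The members covered low, middle and high levels. Their mean over the drought libraries ran from 3.55 to 1733 TPM, with a median of 24.5 TPM, against a median of 12.5 TPM for all contigs with a mean of at least 2. It was under 10 TPM in 25 members, between 10 and 100 TPM in 54, and 100 TPM or more in 21. Among all contigs with the minimum mean, 7.16% reached 100 TPM. In the controls the members averaged 0.488 to 572 TPM, with a median of 8.47 TPM. These levels were used by the rule and are given as a description. In whole leaves, more transcript per cell and more cells of a type that carries the transcript cannot be told apart.

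Summed over the 100 members, the TPM made up 0.517, 0.465 and 0.357% of the S1 control libraries and 1.16, 1.60 and 1.44% of the S1 drought libraries. At S2 the sums were 0.218, 0.377 and 0.284% in the controls and 1.03, 1.29 and 0.787% in drought. The lowest drought library was the S2 replicate 3 and the highest control was the S1 replicate 1. The group means were 0.446% ± 0.082 and 1.40% ± 0.22 (SD, n = 3) for control and drought at S1, and 0.293% ± 0.080 and 1.04% ± 0.25 at S2. The ratio of drought to control was 3.14 at S1 and 3.54 at S2. Without the 3 libraries that stood apart these ratios were 3.21 and 4.64.

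**Figure D2:**
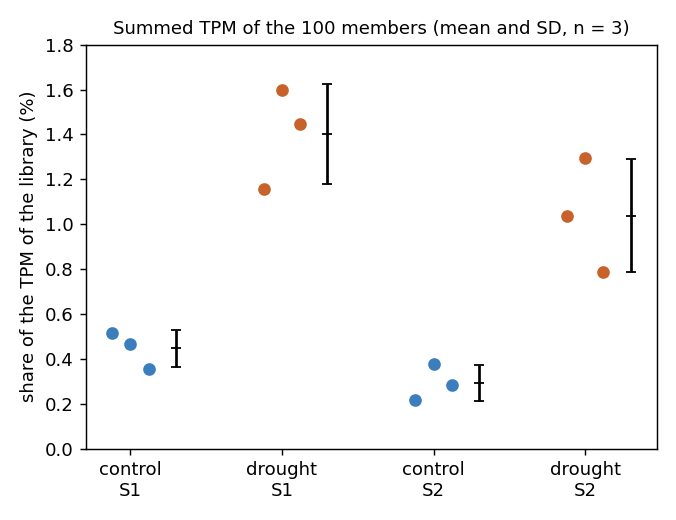
The summed TPM of the 100 members is shown as a percent of the TPM of each library (points, blue control and orange drought), with the group mean and SD (n = 3) in black. Every drought point lies above every control point, which follows from the rule. The S2 drought replicate 3, at 0.787%, is the lowest of the 6.

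Of the first 6 members, 3 were abundant under drought and 3 were less so. The first was contig-31000000, of 1361 bases. It stood at 39.0, 65.4 and 36.5 TPM in the S1 controls and at 671, 1187 and 947 TPM in S1 drought. At S2 it stood at 18.6, 24.9 and 47.9 TPM in the controls and at 339, 534 and 150.2 TPM in drought. The S2 drought replicate 3 was the lowest of the droughted leaves, still 2.30 times the highest control, and all 3 S1 drought libraries lay above all 3 of S2. The means were 47.0 ± 16 and 935 ± 258 TPM at S1, a 19.9-fold difference, and 30.5 ± 15.5 and 341 ± 192 TPM at S2 (SD, n = 3), an 11.2-fold difference.

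The contig ranked 4, of 332 bases, and the contig ranked 6, of 703 bases, showed the same course at other levels. In the S1 controls rank 4 had 26.5, 51.9 and 36.0 TPM, against 428, 915 and 563 TPM in S1 drought. Its S2 values were 12.4, 21.0 and 39.8 TPM in the controls and 151.5, 328 and 106.3 TPM in drought. It was lower in all 3 S2 drought libraries than in any of S1, and the fold was 16.7 at S1 and 8.01 at S2. Rank 6 had 78.5, 149.0 and 86.9 TPM in the S1 controls and 1371, 2278 and 2230 TPM in S1 drought. At S2 it had 63.6, 69.0 and 110.4 TPM in the controls and 717, 1218 and 281 TPM in drought. With a mean of 1349 TPM over the droughted leaves it was among the most abundant members, and its fold was 18.7 at S1 and 9.12 at S2.

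The other 3 of the first 6 members were low or near absent in watered leaves. The second in rank, contig-2380000020, of 1020 bases, was listed at 1.25, 0.38 and 0 TPM in the S1 controls and at 7.77, 15.5 and 9.22 TPM in S1 drought. At S2 it was listed at 0, 1.56 and 0 TPM in the controls and at 3.85, 8.08 and 3.62 TPM in drought. Its estimated counts were at most 37.2 in any control and at least 64.7 in every drought library, so its means rested on few reads. The contig ranked 3, of 1072 bases, had 0.41, 0.58 and 0.48 TPM in the S1 controls and 5.07, 7.46 and 4.41 TPM in S1 drought. At S2 it had 0.76, 0.52 and 0.18 TPM in the controls and 2.31, 5.17 and 1.81 TPM in drought. Its estimated counts were 2.19 to 22.8 in the controls and 40.9 to 159.5 in drought, so its means also rested on few reads. The drought ranges of the 2 samplings overlapped for both contigs.

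The contig ranked 5, of 368 bases, varied least of the 6 between the S2 drought libraries. Its values were 2.36, 5.62 and 0.98 TPM in the S1 controls and 34.1, 55.8 and 35.1 TPM in S1 drought. At S2 they were 1.22, 1.5 and 0.86 TPM in the controls and 11.6, 11.9 and 13.9 TPM in drought. Its estimated counts were 2.57 to 35.65 in the controls and 51.1 to 315.5 in drought, so its control means rested on few reads. The S2 drought replicate 3 was here the highest of its group, unlike in ranks 1, 4 and 6. The drought level was lower in all 3 S2 libraries than in all 3 of S1, and the fold was 13.9 at S1 and 10.4 at S2.

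**Figure D3:**
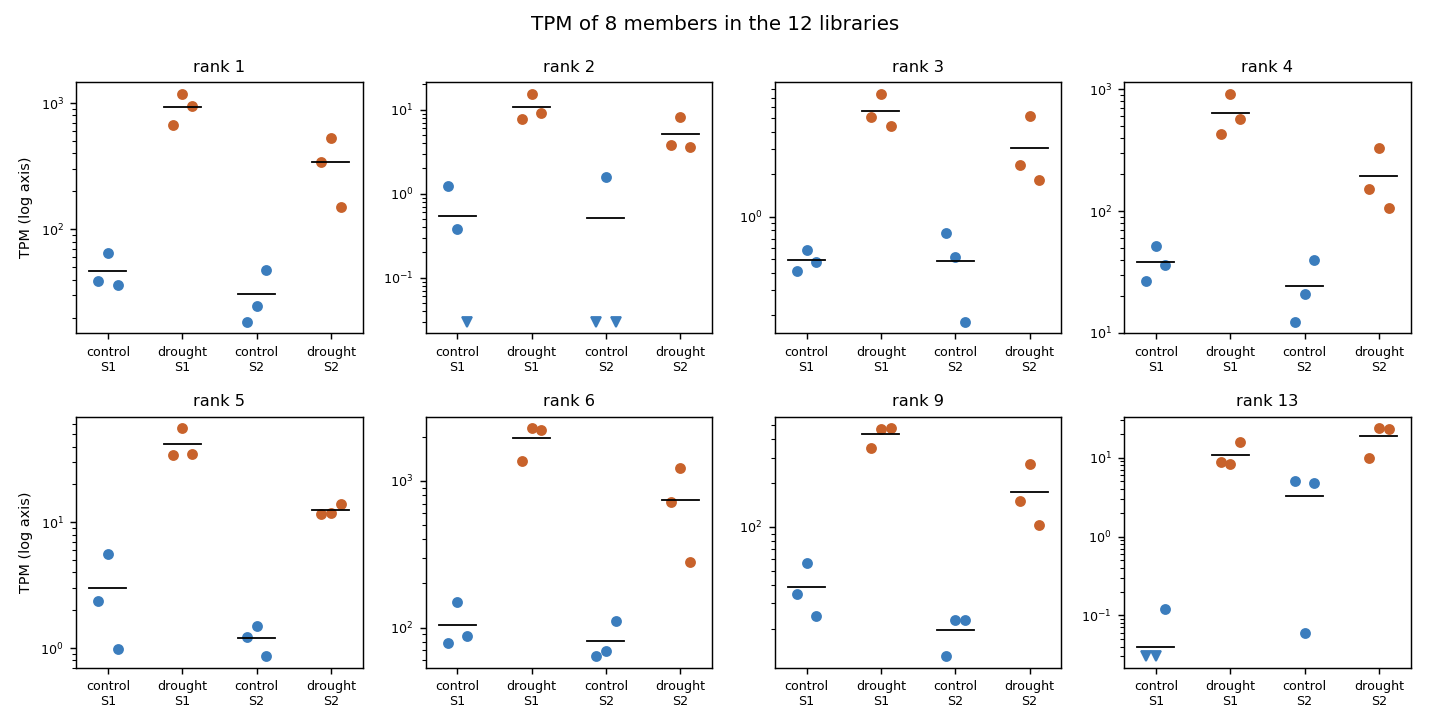
TPM (log axis, a different range in each panel) of the members ranked 1 to 6, 9 and 13 in the 12 libraries, with blue points for control, orange points for drought and a black line for the group mean. Triangles mark libraries in which the contig was listed at 0, drawn at the foot of the panel. In ranks 1, 4, 5, 6 and 9 the 3 S2 drought points lie below the 3 S1 drought points.

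Ranks 1, 4 and 6 put the 6 drought libraries in the same order. This order was found in 3 of the 100 members and in 94 contigs (0.397%) with a mean of at least 2 TPM, while the members together showed 80 different orders. Over all 12 libraries the TPM of rank 4 was 0.447 to 0.985 of that of rank 1, with a median of 0.694. For rank 6 the multiple was 1.87 to 3.42, with a median of 2.28. The contig ranked 9, of 494 bases, chosen for mention after its values were seen, had a similar course and 0.400 to 0.925 of the level of rank 1. Without sequences, whether these contigs are pieces of 1 transcript, members of 1 family or separate genes was not tested.

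The most abundant member under drought was ranked 87, a contig of 355 bases. Its values were 956, 907 and 454 TPM in the S1 controls and 1686, 1861 and 2074 TPM in S1 drought. At S2 they were 184.7, 585 and 347 TPM in the controls and 1700, 1899 and 1177 TPM in drought. It was therefore already abundant in watered leaves, and drought and control differed by 2.43-fold at S1 and 4.28-fold at S2. Between the samplings its drought ranges overlapped, and so did those of its controls.

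As a description of what the rule chose, the ratio of mean TPM in drought to control had a median over the members of 2.5 at S1 and 3.52 at S2. The median over all contigs with the minimum mean was itself 0.913 at S1 and 1.22 at S2. Relative to these, the members' median was 2.74 at S1 and 2.89 at S2. The fold exceeded 2 in 76 members at S1 and in 96 at S2, exceeded 4 in 21 and 40, and exceeded 8 in 10 and 10. It exceeded 4 at both samplings in 19 members. The larger fold was at S2 in 83 members, against 66.0% of all contigs with the minimum mean, and in 44 once each fold was divided by the median of all contigs. The number of members with the larger fold at S2 thus moved with the scale of the libraries. Their relative medians, 2.74 and 2.89, lay close together, and no direction is read from them. The share of all contigs after this division is not given here. Without the 3 libraries that stood apart, the medians before division were 2.53 and 4.83. The larger fold was then at S2 in 81 members, against 62.4% of all contigs.

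In TPM folds not divided by the median of all contigs, the first 6 members ran the other way from most members. After that division the larger fold was at S2 in 44 members. On the edgeR scale the fitted difference was below 0 in 51 members and above 0 in 49. The contrast with most members was therefore not seen after the division or on the edgeR scale. All of the first 6 had the larger undivided fold at S1, where it was 11.5 to 19.9, against 6.36 to 11.2 at S2. Without the 3 libraries that stood apart, 5 of the 6 did, the exception being rank 2, whose remaining S2 controls were both at 0. Of the other 94 members, 83 had the larger undivided fold at S2. The contigs ranked 42 and 76, chosen for mention after their values were seen, were exceptions among them, with 6.95-fold at S1 and 2.79-fold at S2 for rank 42, and 16.7-fold and 4.48-fold for rank 76. Rank 76 varied widely between replicates, from 26.1 to 117.9 TPM in S1 drought and from 12.4 to 62.1 TPM in S2 drought.

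**Figure D4:**
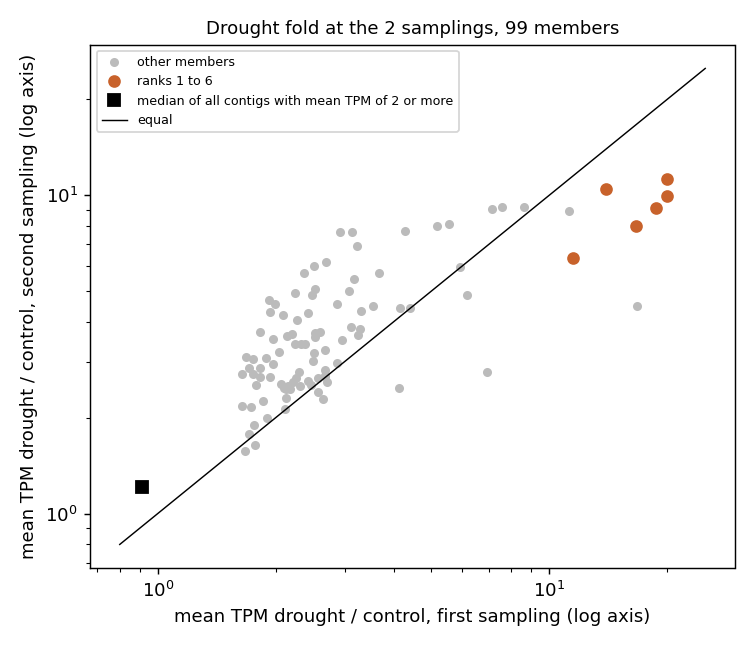
The ratio of mean TPM in drought to control at S2 (vertical log axis) is plotted against that at S1 (horizontal log axis) for 99 members. Rank 13, whose S1 controls were near 0, is left out. Ranks 1 to 6 (orange) lie below the line of equality, 83 of the 100 members lie above it, and the black square marks the medians of all contigs, 0.913 and 1.22.

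Whether the members changed between the samplings was asked within each treatment. The rule did not use the sampling, but it used the same values. It bounded the lowest drought value and the highest control value of each member. Counts and medians of the members with time can therefore be in part set by the choice. Their distance to the values of all contigs is given as a description only. With edgeR's quasi-likelihood test and the Benjamini-Hochberg adjustment over 33,602 contigs, 0 of the 100 members passed an adjusted p of 0.05 for S2 against S1 under drought. Over all contigs, 0% rose and 0.00298% fell in this test. At an unadjusted p under 0.05, 0 members were higher and 6 were lower at S2, against 3.46 and 2.84% of all contigs. DESeq2 called 1 member, rank 5, as lower (0.536% of all contigs, and 0.979% in either direction), and limma called 0. The fitted log2 fold change was below 0 in 71 members, against 50.5% of all contigs, with a median of -0.14 against -0.01. The number below 0 changed with the libraries used. It was 53 without the S2 drought replicate 3 (55.4% of all contigs), 57 without the S1 drought replicate 2 (49.2%), 83 without the S2 drought replicate 2 (51.9%) and 50 without the 3 libraries that stood apart (53.1%).

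In TPM, without a test, 9 members had all 3 S2 drought libraries below all 3 of S1 (ranks 1, 4, 5, 6, 9, 42, 60, 66 and 83), beside 5.98% of all contigs with the minimum mean. Ranks 50 and 73 had all 3 above, beside 8.16%. Rank 50 stood at 3.38, 3.41 and 3.33 TPM in S1 drought and at 5.22, 11.4 and 6.70 TPM in S2 drought. Leaving out the 3 libraries that stood apart, the counts were 11 lower (11.7% of all contigs) and 7 higher (14.9%). The lowest p under drought was that of rank 4, with a log2 fold change of -1.69 (SE 0.51) and an adjusted p of 0.736 by edgeR. Over the 21 alternatives its adjusted p was 0.116 to 1.0 and its log2 fold change -2.28 to -1.38. For rank 1 the log2 fold change was -1.45 (SE 0.52), with an adjusted p of 0.766 by edgeR and a range over the alternatives of 0.210 to 1.0. With 3 libraries against 3, an exact permutation test of a single contig cannot go below p = 0.1.

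In watered leaves, 0 members passed the edgeR test for S2 against S1, where 0.00893% of all contigs rose and 0.0119% fell. At an unadjusted p under 0.05, 1 member was higher and 4 were lower, against 8.95 and 8.09% of all contigs. The number lower at this level varied with the setting. It was 12 with the replicate block (7.77% of all contigs), 23 with limma on log2(TPM + 1) (16.5%), 27 with limma on log2(TPM + 0.1) (17.6%), 23 by edgeR without the S2 control replicate 2 (15.7%), and 20 without the 3 libraries that stood apart (15.1%). DESeq2 called 1 member, rank 13, as higher (4.54% of all contigs, and 7.06% in either direction), and limma called 0. The result depended on the S2 control replicate 2. Without it edgeR called 10 members, 1 higher and 9 lower, beside 4.38% of 35,307 contigs higher and 4.37% lower (8.75% together). It called 7 without the 3 libraries that stood apart, 1 higher and 6 lower, beside 4.61 and 4.93% (9.54% together). In TPM, 18 members had all 3 S2 controls below all 3 S1 controls (19.1% of all contigs) and 0 had all 3 above (5.56%). Without the 3 libraries the counts were 53 (43.6%) and 3 (21.2%).

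In the controls the members leaned below 0 on both scales, and the size of this lean moved with the scale. The rule bounded the highest control, which was the S1 replicate 1 in 47 members and the S1 replicate 2 in 29. The lean can therefore be in part set by the choice, and nothing is read from its distance to all contigs. On the edgeR scale the fitted log2 fold change was below 0 in 66 members, against 55.0% of all contigs. The members' median was -0.24, while the median of all contigs was -0.12. On the log2(TPM + 1) scale the log2 fold change was below 0 in 89 members, against 68.0% of all contigs. The members' median was -0.48, and the median of all contigs was -0.31. The members' median was below that of all contigs on both scales, but not on the edgeR scale without the S2 control replicate 1 (-0.07 against -0.10). For rank 1 in watered leaves the edgeR log2 fold change was -0.27 with an adjusted p of 0.819. Over the alternatives that adjusted p was 0.424 to 0.999, and the sign turned without the S1 control replicate 2 (0.01) and without the 3 libraries (0.20).

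The difference of the drought effects between the samplings was also fitted, contig for contig. It is built from values that the rule used, and the rule left out contigs raised at only 1 sampling. The counts for the members are therefore in part set by the choice. Nothing is read from their distance to the shares of all contigs. For this difference edgeR, DESeq2 and limma called 0 members, and edgeR called 0% of all contigs in either direction (DESeq2 called 1.25%). At an unadjusted p under 0.05, edgeR had 0 members with the larger effect at S2 and 2 with the larger effect at S1, against 5.34 and 3.83% of all contigs. Without the S2 control replicate 2 these counts were 12 and 2 (11.1 and 6.42% of all contigs), and without the 3 libraries that stood apart they were also 12 and 2 (9.89 and 7.84%). On the edgeR scale the fitted difference was below 0 in 51 members (48.0% of all contigs) and above 0 in 49. It was below 0 in 36 without the S2 drought replicate 3 (52.1%) and in 37 without the 3 libraries that stood apart (50.1%). Without the S2 control replicate 1 it was below 0 in 54 (47.5%). On the log2(TPM + 1) scale it was below 0 in 22 members (36.8% of all contigs) and above 0 in 78. The median of all contigs was 0.05 on the first scale and 0.24 on the second.

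The contig ranked 13, of 708 bases, was the member with the lowest p in both of these tests. It was listed at 0, 0 and 0.12 TPM in the S1 controls (0, 0 and 2 estimated counts) and at 8.80, 8.23 and 15.8 TPM in S1 drought. In the S2 controls it was at 5.06, 0.06 and 4.74 TPM (93.0, 1 and 35 estimated counts) and in S2 drought at 9.81, 23.6 and 23.1 TPM. The S2 control replicate 2 was thus near the S1 controls, and the other S2 controls were not. For S2 against S1 in watered leaves the fitted log2 fold change was 6.36 (SE 1.46), with an adjusted p of 0.132 by edgeR. This value depends on the prior count, since the S1 controls hold 2 counts in all. The adjusted p was 0.00058 with DESeq2, 0.0093 by edgeR without the S2 control replicate 2, and 0.016 without the 3 libraries that stood apart, within a range of 0.00058 to 0.433 over 19 alternatives. For the difference of the drought effects the log2 value was -5.64 (SE 1.76) with an adjusted p of 0.483 by edgeR, and 0.060 to 0.708 over the alternatives.

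Single libraries set the gap of many members. The S2 drought replicate 3 was the lowest of the 6 drought libraries in 46 members, against 22.7% of all contigs with the minimum mean, and the highest in 1, against 26.8%. The S1 drought replicate 2 was the highest in 47, against 20.2%. Among the controls, the S1 replicate 1 was the highest in 47 members (22.9% of all contigs) and the S1 replicate 2 in 29 (25.2%). The S2 control replicate 1 was the lowest in 63 (35.5%). The rule favours contigs whose replicates lie close together, so the spread of the members is given as a description only. The median coefficient of variation was 24.0% in S1 drought, 23.1% in S2 drought, 24.2% in S1 controls and 42.2% in S2 controls. Over all contigs with the minimum mean it was 27.3, 34.2, 33.2 and 43.8%.

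Each library was then left out of the choice in turn and read on the first 100 contigs chosen from the other 11. A drought library was counted on its labelled side where it lay above all controls, and a control where it lay below all drought libraries. The S1 controls were on their side in 71, 60 and 97 contigs, beside 12.4, 12.4 and 20.6% of all contigs with the minimum mean. For the S2 controls the counts were 100, 92 and 98, beside 41.2, 21.8 and 37%. For S1 drought they were 85, 96 and 97, beside 15, 22.7 and 17.7%. For S2 drought they were 87, 97 and 39, beside 17.1, 19.2 and 14.9%. The S2 drought replicate 3 was the lowest, with 39 of 100. The 6 libraries of the other treatment, against which a library was read, had helped to choose its 100 contigs. A count above the share of all contigs is therefore in part built into the choice, and nothing is read from the difference.

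**Figure D5:**
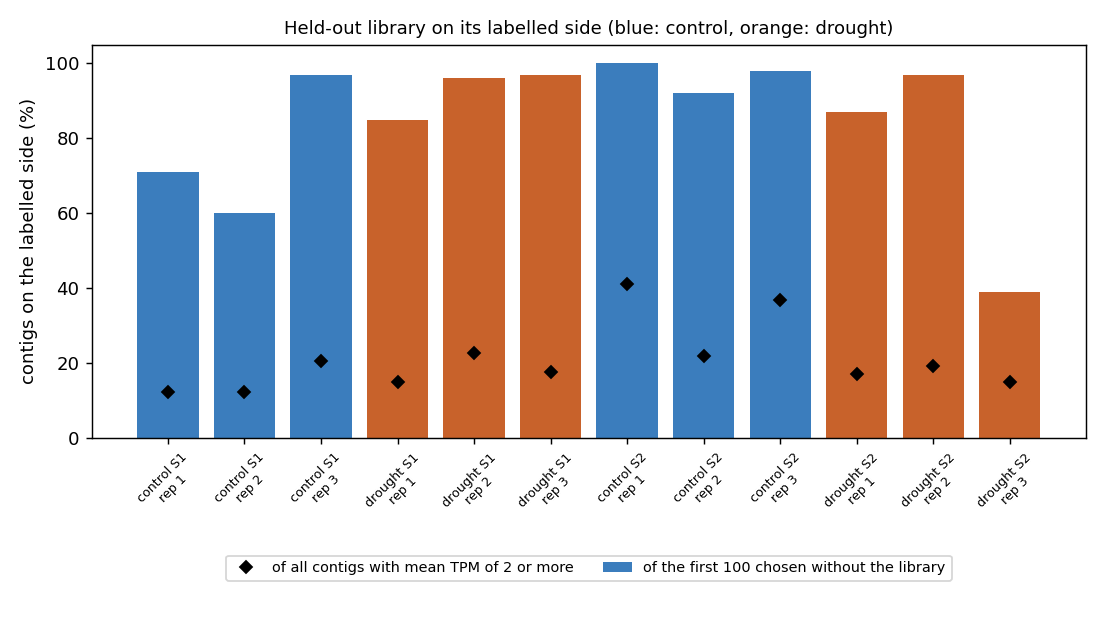
For each library, the bar gives how many of the first 100 contigs chosen from the other 11 libraries had it on its labelled side (%, blue control, orange drought). The diamond gives the share of all contigs with a mean of at least 2 TPM over the other 11 libraries, with those that met the rule included. The height of a bar above its diamond is in part set by the choice. The bars run from 39% for the S2 drought replicate 3 to 100% for the S2 control replicate 1.

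The list itself changed with these choices. Leaving out a library cannot close a gap, so a member could stop meeting the rule only through the mean of 2 TPM. For the same reason the number of contigs meeting the rule could fall only through that mean. Without the S2 drought replicate 3 all 100 members still met the rule, among 1088 contigs that did. Of the members 26 stayed among the first 100, and the median rank of all 100 members was 229. Without the 3 libraries that stood apart 2333 contigs met it, 7 members stayed among the first 100, and the median rank of the members was 702. Rank 1 moved to 18 and rank 2 to 107. Other contigs had wider gaps in the libraries that remained.

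Contigs were also chosen at 1 sampling and read at the other. At S1 alone 2416 contigs had all 3 drought libraries above all 3 controls, and of the first 100 by rank 37 also did at S2, beside 18.5% of all contigs. Of these 100, 0 had all 3 drought libraries below all 3 controls at S2 (8.39% of all contigs), and 95 had the higher mean in drought (61.8%). At S2 alone 4195 contigs met the rule, and of the first 100, 22 also did at S1 (9.85%). Another 8 were lower without overlap (16.9%), and 59 had the higher mean in drought (41.8%). The first lists held 12 and 10 of the 100 members. Without the 3 libraries that stood apart the counts of 37 and 22 became 77 (44.9%) and 16 (19%).

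Contig lengths of the members had a median close to that of all contigs. The shortest had 214 and the longest 5922 bases, and the median was 1193 bases, against a median of 1176 bases over all contigs with the minimum mean. Of the members 15 were of 500 bases or less (12.7% of all contigs) and 13 were over 3000 bases (6.03%). Counts were high for most members. The median over members of the lowest estimated count was 611 in a drought library and 112 in a control. They were low for some, with 17 members under 10 counts in at least 1 control, 5 listed at 0 TPM in at least 1 control, and 3 under 30 counts in at least 1 drought library. Reads that match several contigs were divided among them by RSEM. Whole estimated counts, within 0.005, in all 12 libraries were found in 2 of the 100 members, near the 1.95% of all contigs with the minimum mean. For the members as for other contigs, values of near-identical contigs may therefore be shared.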

How the data were processed

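Leaf RNA was sequenced from stranded mRNA libraries, 3 biological replicates for each of 4 groups, which were taken from the sample labels. The labels credit the deposited values to cutadapt 1.9 and RSEM. For RSEM no version was found, and the aligner and assembler are likewise not given in the sources used. The estimated counts are the reads assigned to each contig by RSEM, as deposited by the authors, without normalization, and the deposited TPM values are scaled by the authors for contig length and library total. The deposited FPKM values and lengths were made by the authors in the same run, and FPKM was not used.

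The rule was applied to TPM. The members, lists and tests were chosen with earlier results of these data known. Drought against control was used by the rule and was not tested. Time was tested on rounded estimated counts with edgeR 4.0.16 under R 4.3.3. The steps were filterByExpr by group (33,602 contigs kept), TMM factors, 1 quasi-likelihood fit of 4 groups, and Benjamini-Hochberg adjustment at 0.05. The SE is the log2 fold change divided by the square root of F. Alternatives were DESeq2 1.42.0, limma 3.58.1 on TPM with a pseudocount of 1 or 0.1 before log2, RLE size factors, other filters, a replicate block, and leaving out libraries. Named were the first 6 members, the most abundant and the lowest p in each test. The scripts were tested on simulated data. No 2 replicates agreed within sampling noise (lowest chi-square per degree of freedom 62.8). The edgeR p-values set the difference between samplings against the spread between these replicates (common biological coefficient of variation 0.68).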

Additional observations from a re-analysis of the deposited data

How the results depend on the processing

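Leaving out the 3 libraries that stood apart moved the most values: 2333 contigs met the rule in place of 379, 7 members stayed among the first 100, the carry-over from S1 to S2 was 77 of 100 (44.9% of all contigs) in place of 37 (18.5%), and from S2 to S1 it was 16 (19%) in place of 22 (9.85%). EdgeR then called 7 members with time in watered leaves (9.54% of all contigs) in place of 0. The setting was chosen after seeing the data for the carry-over and the time tests. Leaving out libraries cannot close a gap, so the number of contigs meeting the rule could fall only through the mean of 2 TPM. Leaving out 1 library at a time gave 390 to 1088 contigs meeting the rule, 26 to 97 members kept, 0 to 10 members called with time in watered leaves, and 0 for the other time tests. The lowest number kept, 26, and the highest number meeting the rule were without the S2 drought replicate 3, and the 10 calls were without the S2 control replicate 2 (8.75% of all contigs). DESeq2 called 1 member with time under drought (0.979% of all contigs) and 1 in watered leaves (7.06%). With a minimum mean of 1 TPM, 12 of the first 100 contigs chosen at S2 carried over to S1 in place of 22. For rank 1 the change with time in watered leaves turned from -0.27 to 0.01 without the S1 control replicate 2 and to 0.20 without the 3 libraries; leaving out 1 library at a time gave -0.78 to 0.01 (0.0053 before rounding). The causes were not tested. The difference of the drought effects needs all 4 groups and had no value in a fit of fewer, and rank 13 had none with at least 10 counts required in every library. Counts under the other minimum means, TMM-scaled CPM and other offsets moved by less than 1.5 times. Replicate numbers were not taken as pairs: of 18 correlations between same-numbered libraries of different groups, from -0.11 to 0.20, only 6 exceeded 0.1, and 6 of 12 libraries correlated best with their own number. With the replicate number as a block edgeR called 0 members in each time test. Estimated counts under 10 in a control limit the precision of 17 members.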
